A study of Mus musculus with 12 samples.

Results

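The expression of 10 autophagy genes was followed in BV2 cells, an immortalized line of mouse microglia. Sqstm1, Tax1bp1 and Optn encode cargo receptors, Ulk1, Becn1, Uvrag and Wipi1 act in the start of autophagosome formation, and Map1lc3b, Gabarapl1 and Gabarapl2 encode ATG8 proteins. They were chosen by name, and each symbol matched 1 Ensembl gene among the 43432 genes of the deposited tables. All 10 were among the 12705 genes abundant enough to be tested. The series asks how 6-shogaol and 6-gingerol, pungent phenols of ginger, alter transcription in microglia stimulated with lipopolysaccharide (LPS), the bacterial endotoxin that activates TLR4. 6-Shogaol is the dehydration product of 6-gingerol, with an α,β-unsaturated ketone in place of the β-hydroxy ketone. RNA sequencing covered 12 libraries in 6 groups of 2. Cells received 6-shogaol at 10 or 30 µM with LPS, 6-gingerol at 10 or 30 µM with LPS, LPS alone, or no treatment. LPS was given at 100 ng/mL, 1 h after the compound. Per the labels' protocol, all cells had first spent at least 4 h in serum-free medium. No group analysed here received a compound without LPS, and the vehicle and the time from LPS to harvest are not given in the sources used here. No label says that the 2 libraries of a group came from separate cultures, so the p-values speak of the spread between libraries, which may be technical.

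Autophagy encloses cytoplasm, organelles or protein aggregates in a double membrane and delivers them to the lysosome. The ULK1 kinase complex starts the process, the lipid kinase complex around Beclin 1 (Becn1) makes the phosphoinositide PI3P, and WIPI proteins read that lipid on the growing membrane. ATG8 proteins (the LC3 and GABARAP families) are then attached to the membrane, and receptors such as p62 (Sqstm1), optineurin (Optn) and TAX1BP1 bind ubiquitin on the cargo and ATG8 on the membrane. In macrophages and microglia these receptors also touch inflammatory signalling: p62 holds KEAP1, the inhibitor of the antioxidant factor NRF2, and Sqstm1 is itself a known NRF2 target. The receptor proteins are degraded together with their cargo, so their mRNA is not a measure of autophagic flux.

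Library depth ran from 16534960 to 21179867 expected counts. Of 12 microglial markers, 11 reached 1 CPM (a count scaled to a common library size) in at least 1 library, and their summed level lay between 2151 and 2364 CPM in every library. Cx3cr1 and P2ry12 were close to 0, at 0.277 to 1.06 CPM and 0.277 to 0.828 CPM over the 12 libraries. Tmem119 was low, at 2.62 to 5.93 CPM, and Csf1r varied from 283.2 to 601.5 CPM. Neuronal markers summed to 0.482 CPM at most, with Snap25 and Gad1 at 0 in all libraries. Of 7 astrocyte markers, Gja1 alone reached 1 CPM, and Aqp4 and Slc1a3 were at 0. The astrocyte sum was 8.58 to 10.1 CPM with 30 µM 6-shogaol and LPS, 15.7 to 16.6 CPM with LPS alone and 6.07 to 6.51 CPM in untreated cells. The remaining lists moved at lower levels. With 30 µM 6-shogaol and LPS against LPS alone, the 6 oligodendrocyte markers summed to 1.09 to 1.55 CPM against 2.66 to 3.16 CPM (Mog, Olig2 and Mag at 0 throughout). The 7 fibroblast and endothelial markers summed to 0.423 to 0.498 CPM against 1.95 to 2.36 CPM (Col1a2, Dcn and Cldn5 at 0). The 8 lymphocyte and neutrophil markers summed to 2.49 to 2.54 CPM against 2.93 to 2.96 CPM, and S100a8 alone of these reached 1 CPM. The defining markers of these cell types were at or near 0. In bulk libraries, fewer cells of a kind and less RNA per cell cannot be told apart.

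The 10 genes differed widely in abundance. Compared as TPM, transcript counts scaled for length and library size, Sqstm1 was the most abundant, with a median of 453 TPM over the 12 libraries (249 to 565 TPM). Map1lc3b followed at 172 TPM and Tax1bp1 at 73.0 TPM. Gabarapl2 had a median level of 57.8 TPM, Becn1 of 49.1 TPM and Gabarapl1 of 46.2 TPM. Uvrag stood at 27.5 TPM and Optn at 11.7 TPM, and the least abundant were Wipi1 at 6.38 TPM and Ulk1 at 5.38 TPM. All other levels below are CPM unless TPM is named, and compare 1 gene between groups.

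Most changes were seen at 1 condition. With 30 µM 6-shogaol and LPS, against LPS alone, Sqstm1, Tax1bp1, Optn, Uvrag and Wipi1 fell and Gabarapl1 rose. These 6 of 10 genes (1 higher, 5 lower) had an adjusted p under 0.05 in edgeR's quasi-likelihood test with Benjamini-Hochberg adjustment, which was the rule for every call. Of all 12705 tested genes, 25.4% were called in that comparison, 12.6% higher and 12.8% lower. The median log2 fold change was -0.21 over the 10 genes and -0.002 over all genes. LPS alone, against untreated cells, raised Optn and Wipi1 and lowered none of the 10, where 11.8% of all genes were called in either direction while 7.66% were higher and 4.16% lower. At 10 µM 6-shogaol with LPS, against LPS alone, none of the 10 was called by edgeR, DESeq2 or limma-voom, where edgeR called 0.638% of all genes (0.0630% higher, 0.575% lower). An unadjusted edgeR p under 0.05 was found there for 3 genes, Wipi1 (log2 fold change -0.34), Tax1bp1 (-0.33) and Map1lc3b (-0.23). Of all 12705 tested genes, 1378 were below that unadjusted threshold in the same comparison. Neither dose of 6-gingerol with LPS gave a call for any of the 10 against LPS alone, by edgeR, DESeq2 or limma-voom, and 0 of the 10 had an unadjusted p under 0.05. The share of all genes called by edgeR was 0% at both doses, with 243 genes at 10 µM and 189 genes at 30 µM below an unadjusted 0.05.

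**Figure D1:**
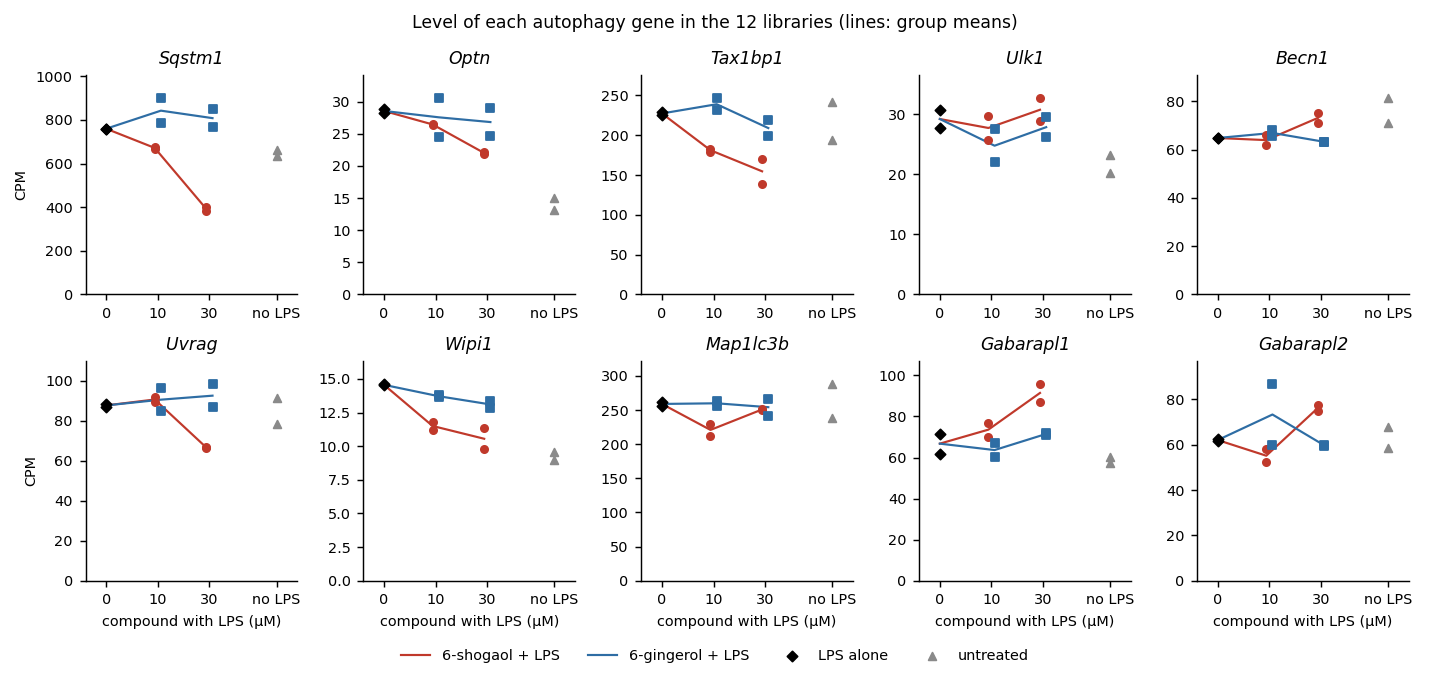
Level of each gene (CPM, y axis from 0) in each library against compound dose with LPS (0, 10 and 30 µM; 0 is LPS alone) and in untreated cells (no LPS); points are libraries and lines join group means. Sqstm1, Uvrag, Optn and Tax1bp1 are lowest among the LPS-treated groups at 30 µM 6-shogaol, and the 6-gingerol lines stay close to LPS alone.

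The receptors are taken first. The stretch from 250 to 51 bases before the RefSeq start (GRCm38.p6, 5′ to 3′ on the gene's strand) is shown for the 3 receptors because they fell together at 30 µM 6-shogaol. The windows are chr11:50210871-50211070 (minus strand) for Sqstm1, chr6:52713479-52713678 (plus strand) for Tax1bp1 and chr2:5064168-5064367 (minus strand) for Optn. Capitals mark a match to the NF-kB consensus.
Sqstm1: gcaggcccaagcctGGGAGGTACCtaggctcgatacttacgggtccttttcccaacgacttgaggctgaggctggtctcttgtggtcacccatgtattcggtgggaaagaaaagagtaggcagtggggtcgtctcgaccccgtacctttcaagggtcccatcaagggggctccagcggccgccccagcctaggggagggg
Tax1bp1: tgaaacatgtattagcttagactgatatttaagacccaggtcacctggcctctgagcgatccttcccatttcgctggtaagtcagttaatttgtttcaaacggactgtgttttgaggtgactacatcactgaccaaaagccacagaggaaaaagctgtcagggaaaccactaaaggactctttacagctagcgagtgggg
Optn: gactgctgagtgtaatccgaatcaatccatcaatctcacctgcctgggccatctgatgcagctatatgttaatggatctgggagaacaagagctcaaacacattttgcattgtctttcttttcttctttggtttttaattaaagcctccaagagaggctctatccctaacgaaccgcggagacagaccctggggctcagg
Both strands of the 250 bases before each start were searched for an antioxidant response element (TGACNNNGC), an E-box (CACGTG), a C/EBP-ATF element (TGATGNAA), the NF-kB consensus (GGGA, 4 free bases, CC) and a heat shock element (GAANNTTC). Of all 32851 RefSeq windows of this kind in the mouse, these occurred in 10.2%, 6.02%, 3.45%, 17.6% and 6.69%. Sqstm1 held 1 NF-kB match (GGGAGGTACC, 236 to 227 bases before the start). Tax1bp1 has a second RefSeq start, whose window held an antioxidant match and an NF-kB match. None of the other members' windows held any of the 5 motifs, and 9 of the 10 genes had a window. These matches describe the letters and are not binding sites.

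Sqstm1 changed most. It stood at 399.9 and 384 CPM in the 2 libraries with 30 µM 6-shogaol and LPS, against 760.2 and 759 CPM with LPS alone. Levels were 668 and 675 CPM with 10 µM 6-shogaol and LPS, 899.8 and 785 CPM with 10 µM 6-gingerol and LPS, 849 and 767 CPM with 30 µM 6-gingerol and LPS, and 635 and 661 CPM in untreated cells. Both 30 µM 6-shogaol libraries were below every other library, untreated ones included, and no other group came near that range. Against LPS alone the level fell by 48.4% (log2 fold change -0.96, SE 0.108, 95% interval -1.19 to -0.73, adjusted p 1.54e-05, edgeR). The call held without any 1 of the 4 libraries compared, with log2 fold changes of -0.98 to -0.92, and in all 9 other fits. Against untreated cells the level fell by 39.5% (-0.73, SE 0.108, adjusted p 1.92e-04, edgeR), so it lay below the unstimulated level. LPS alone gave a log2 fold change of 0.23 over untreated cells (SE 0.107), with an adjusted p of 0.198 in edgeR.

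Tax1bp1, whose protein also restrains NF-kB signalling as a partner of A20, had 139 and 170.4 CPM with 30 µM 6-shogaol and LPS, against 229.8 and 225 CPM with LPS alone. At 10 µM 6-shogaol with LPS it had 179.5 and 183 CPM, with 10 µM 6-gingerol and LPS 231 and 247 CPM, with 30 µM 6-gingerol and LPS 199 and 219 CPM, and in untreated cells 241.2 and 193.5 CPM. The libraries of both 6-shogaol doses lay below all others. The change at 30 µM against LPS was -0.56 on the log2 scale (SE 0.12, adjusted p 0.0033, edgeR). It was -0.41 with an adjusted p of 0.057 (edgeR) when the first 30 µM 6-shogaol library was left out.

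Optn, a receptor for ubiquitin-coated bacteria and mitochondria that is activated by the kinase TBK1, was the gene that LPS raised most among the 10. It stood at 28.8 and 28.3 CPM with LPS alone, against 13.1 and 14.9 CPM in untreated cells, which is 1.03 on the log2 scale (SE 0.131, edgeR adjusted p 5.78e-05). The call held in all 13 other fits. With 30 µM 6-shogaol and LPS it had 21.9 and 22.1 CPM, below both LPS libraries and above both untreated ones. Its log2 fold change was -0.38 against LPS alone (SE 0.128, edgeR adjusted p 0.0434) and 0.65 against untreated cells (edgeR adjusted p 0.00236). The difference from LPS alone was near the threshold: without any 1 of the 4 libraries the adjusted p lay between 0.142 and 0.166 (edgeR). Of the 9 fits with other settings 5 also lost the call: DESeq2 gave 0.062, library totals 0.0673, a fragment length covariate 0.0791, an effective length offset 0.0524 and limma-trend on the authors' deposited table gave 0.0635. Levels with 10 µM 6-shogaol and LPS (26.4 and 26.5 CPM), 10 µM 6-gingerol and LPS (24.6 and 30.6 CPM) and 30 µM 6-gingerol and LPS (24.6 and 29.0 CPM) overlapped each other.

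The 5 receptors Sqstm1, Tax1bp1, Optn, Nbr1 and Calcoco1 were summed in TPM. Their sum was 371.8 ± 5.7 TPM with 30 µM 6-shogaol and LPS, against 608.7 ± 23.1 TPM with LPS alone (SD, n = 2 each). Sqstm1 made up 67.7% of that sum at 30 µM 6-shogaol and 75.5% with LPS alone. Of the 5 other genes on the receptor list, Calcoco1, an ATG8-binding receptor, fell at 30 µM 6-shogaol against LPS (-0.31, adjusted p 0.0431, edgeR). Tbk1, the kinase of optineurin and p62, was raised by LPS over untreated cells (0.63, adjusted p 0.00117, edgeR), the comparison that also raised Optn.

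**Figure D2:**
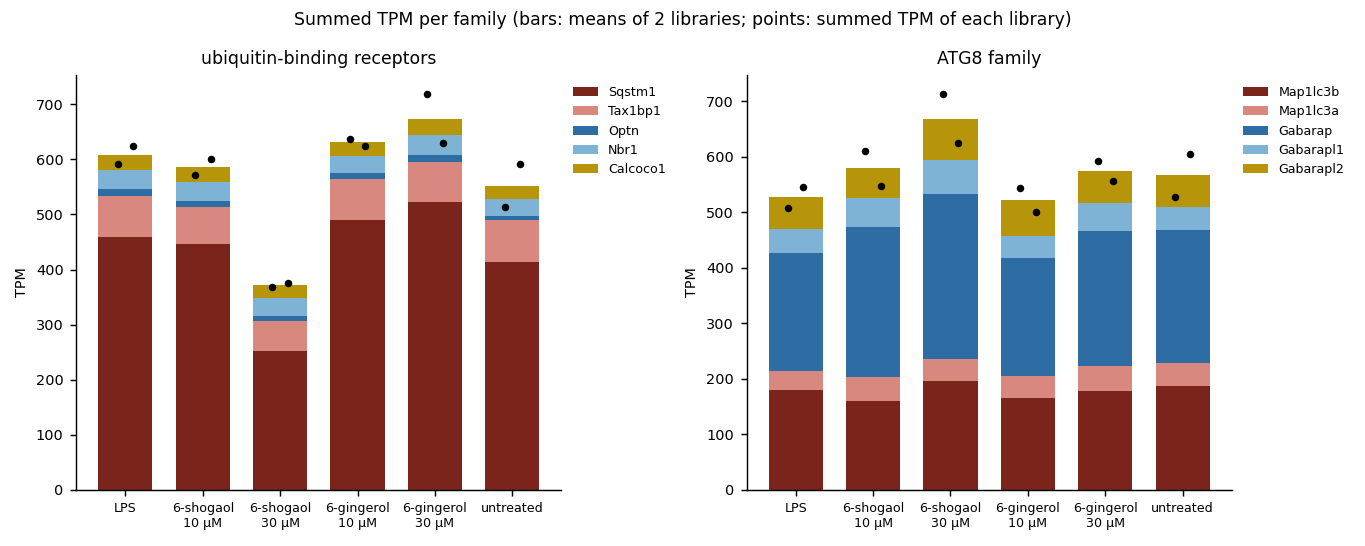
Summed TPM of the 5 receptors Sqstm1, Tax1bp1, Optn, Nbr1 and Calcoco1 (left) and the 5 ATG8 genes (right) in each group. Stacked bars are means of 2 libraries per gene and points are the sums of single libraries. The receptor sum at 30 µM 6-shogaol, at 368 and 376 TPM, is below all other libraries, and the ATG8 sum there, at 713 and 624 TPM, is above them.

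The initiation genes did not share 1 direction. Uvrag, a partner of Beclin 1 in the lipid kinase complex, had 66.5 and 66.6 CPM with 30 µM 6-shogaol and LPS, against 86.9 and 88.3 CPM with LPS alone. In the other groups it lay between 78.4 and 98.1 CPM, so both 30 µM 6-shogaol libraries were the lowest of the 12. The log2 fold change against LPS was -0.40 (SE 0.105, adjusted p 0.0120, edgeR). Leaving out any 1 of the 4 libraries took the adjusted p to between 0.0618 and 0.0788 (edgeR), with values of -0.41 to -0.38.

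Wipi1, a PI3P-binding protein of the forming autophagosome, was raised by LPS. It had 14.6 and 14.5 CPM with LPS alone, against 8.98 and 9.54 CPM in untreated cells (log2 fold change 0.65, SE 0.127, adjusted p 0.00269, edgeR), and the call held in all 13 other fits. With 30 µM 6-shogaol and LPS the levels were 9.77 and 11.3 CPM, below LPS alone (-0.46, SE 0.128, adjusted p 0.0150, edgeR) and just above untreated cells, from which they differed by 0.19 (adjusted p 0.32, edgeR). With 10 µM 6-shogaol and LPS they were 11.2 and 11.8 CPM, with 10 µM 6-gingerol and LPS 13.8 and 13.6 CPM, and with 30 µM 6-gingerol and LPS 12.8 and 13.4 CPM. Both 6-shogaol doses lay below both 6-gingerol doses without overlap. The call at 30 µM against LPS was lost in 3 of 4 fits that left out 1 library: the adjusted p was 0.0773 without the first and 0.0785 without the second LPS library, and 0.13 without the first 30 µM 6-shogaol library (edgeR). The authors' deposited table gave 0.0748 (limma-trend).

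Ulk1, the initiating kinase, had 32.7 and 28.8 CPM with 30 µM 6-shogaol and LPS, 27.7 and 30.7 CPM with LPS alone and 20.2 and 23.1 CPM in untreated cells. The levels with and without 30 µM 6-shogaol overlapped (0.07, 95% interval -0.22 to 0.36). Both groups lay above untreated cells: the difference was 0.50 for 30 µM 6-shogaol and LPS (adjusted p 0.0144, edgeR) and 0.43 for LPS alone (adjusted p 0.0540, edgeR). That LPS value was close to the threshold, with adjusted p-values of 0.0213 to 0.326 over its alternatives. Becn1, the scaffold of the lipid kinase complex, had 71.1 and 75.1 CPM with 30 µM 6-shogaol and LPS, 64.7 and 64.9 CPM with LPS alone and 81.3 and 70.8 CPM in untreated cells. No edgeR comparison called it. Its table entry pools 17 transcripts, and the mean length RSEM assigned to it ran from 1470 to 1918 bases over the libraries. Scaling for that length moved its 30 µM 6-shogaol difference from LPS to -0.01, against 0.17 without it.

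Among the ATG8 genes, Gabarapl1 rose. The 200 bases of its promoter that end 51 bases before the RefSeq start, at chr6:129532942-129533141 (plus strand, GRCm38.p6), are given beside those of the receptors because it moved the opposite way. They hold none of the 5 motifs.
Gabarapl1: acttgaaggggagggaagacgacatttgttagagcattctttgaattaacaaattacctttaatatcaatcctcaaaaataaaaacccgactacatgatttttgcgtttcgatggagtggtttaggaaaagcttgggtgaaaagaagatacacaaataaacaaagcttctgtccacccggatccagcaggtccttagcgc
Gabarapl1 had 95.6 and 87.3 CPM with 30 µM 6-shogaol and LPS, against 71.7 and 61.8 CPM with LPS alone. In the remaining groups it ranged from 57.5 CPM in an untreated library to 77.0 CPM in a library with 10 µM 6-shogaol and LPS, so the 30 µM 6-shogaol libraries were the highest of the 12. The log2 fold change was 0.46 against LPS (SE 0.105, adjusted p 0.00509, edgeR) and 0.64 against untreated cells (SE 0.105, adjusted p 4.81e-04, edgeR). Against LPS the adjusted p was 0.0901 without the second LPS library and 0.0504 without the first 30 µM 6-shogaol library (edgeR). Against untreated cells the call held in all 13 other fits.

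Gabarapl2 had 74.9 and 77.6 CPM with 30 µM 6-shogaol and LPS, against 62.4 and 61.8 CPM with LPS alone. The groups did not overlap, but the log2 fold change of 0.30 (SE 0.139) had an adjusted p of 0.137 (edgeR). Its levels with 10 µM 6-gingerol and LPS were far apart, at 86.7 and 60.1 CPM. Map1lc3b, which encodes LC3B, the ATG8 protein most used to stain autophagosomes, had 250.2 and 251.5 CPM with 30 µM 6-shogaol and LPS and 255.9 and 262 CPM with LPS alone, a difference of -0.05 (95% interval -0.27 to 0.18). It differed little over the 6 groups, whose means spanned 0.25 on the log2 scale. A readthrough-type gene, Gm20388, overlaps it on the same strand with a mean of 435 expected counts against 4730 for Map1lc3b, so reads may be shared between them. The ratio of Sqstm1 to Map1lc3b in TPM was 1.31 and 1.25 with 30 µM 6-shogaol and LPS, against 2.66 and 2.48 with LPS alone, and between 1.85 and 3.35 elsewhere. The mean length RSEM assigned to Map1lc3b was 1574 bases with 30 µM 6-shogaol and LPS and 1657 bases with LPS alone. Its mean level was 197 TPM against 179 TPM, although its CPM did not rise. This length scaling enters the ratio and the summed ATG8 level. Gabarap, the most abundant ATG8 gene at 296 ± 53.9 TPM with 30 µM 6-shogaol and LPS and 213 ± 7.88 TPM with LPS alone (SD, n = 2 each), had an adjusted p of 0.0725 for that difference (edgeR, log2 fold change 0.41). The summed ATG8 level was 668.4 ± 62.6 TPM with 30 µM 6-shogaol and LPS, against 526.9 ± 26.4 TPM with LPS alone (SD, n = 2 each).

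**Figure D3:**
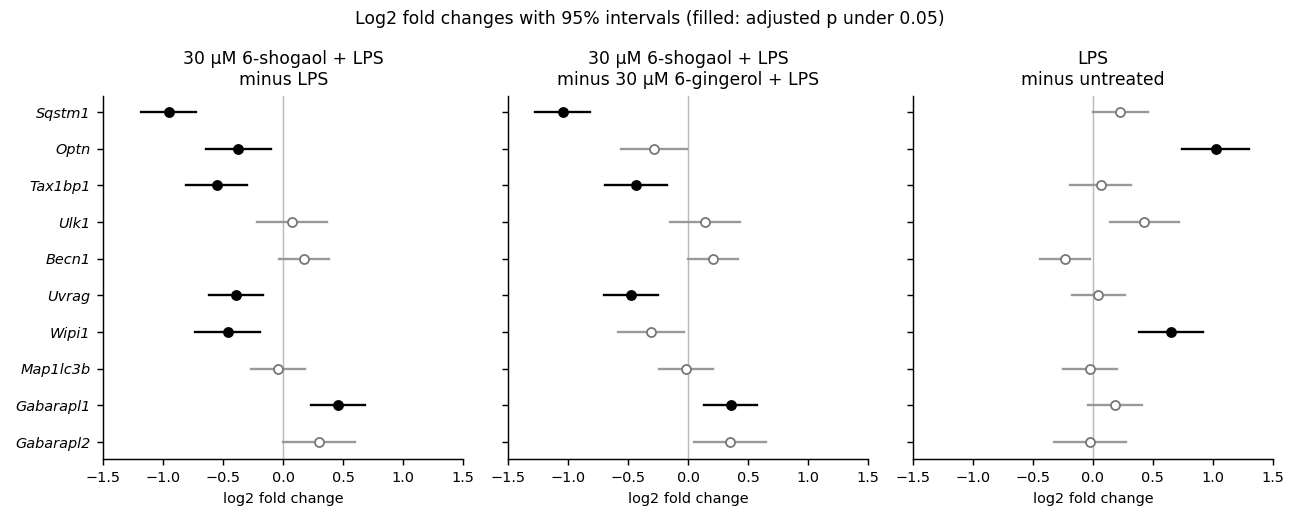
Log2 fold changes (x axis) with 95% intervals for each of the 10 genes in 3 comparisons: 30 µM 6-shogaol with LPS minus LPS, 30 µM 6-shogaol with LPS minus 30 µM 6-gingerol with LPS, and LPS minus untreated; filled points have an adjusted p under 0.05. Sqstm1 stands apart at -0.96 and -1.04 in the first 2 panels, and Optn at 1.03 in the last.

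The compounds were compared at both matched doses, that is in 2 pairs. At 30 µM, 6-shogaol with LPS against 6-gingerol with LPS, 4 of the 10 genes were called (1 higher, 3 lower), where 25.0% of all genes were (12.5% higher, 12.4% lower). Sqstm1 was lower with 6-shogaol, at a log2 fold change of -1.04 (SE 0.108), with an adjusted p of 7.24e-06 within the pair and 1.39e-05 over both pairs (edgeR). Uvrag differed by -0.47 (0.00401 and 0.00751), Tax1bp1 by -0.43 (0.0156 and 0.0281) and Gabarapl1 by 0.36 (0.0219 and 0.0386), each with its edgeR adjusted p within the pair and over both pairs. The 6-shogaol and 6-gingerol libraries did not overlap for these 4 genes. They did not overlap either for Wipi1, Optn, Becn1 and Gabarapl2, which were not called, so this does not set the called genes apart. The other 6 were not called, and their intervals give the differences that remain possible: Wipi1 -0.58 to -0.04, Optn -0.56 to -0.01, Becn1 0.002 to 0.42, Gabarapl2 0.05 to 0.65, Ulk1 -0.15 to 0.43 and Map1lc3b -0.24 to 0.21. Leaving out the first 30 µM 6-shogaol library ended the calls of Tax1bp1 (adjusted p 0.172) and Gabarapl1 (0.139), leaving out the second 30 µM 6-gingerol library did so too (0.11 and 0.0797), and leaving out the first one ended those of Uvrag (0.0603) and Gabarapl1 (0.12), all by edgeR.

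At 10 µM, 6-shogaol with LPS against 6-gingerol with LPS, none of the 10 was called, nor by DESeq2 or limma-voom, where edgeR called 0.638% of all genes (0.0787% higher, 0.559% lower). An unadjusted edgeR p under 0.05 was found for 4: Gabarapl2 (log2 difference -0.41, 95% interval -0.71 to -0.11), Tax1bp1 (-0.40, -0.65 to -0.15), Sqstm1 (-0.33, -0.56 to -0.10) and Map1lc3b (-0.24, -0.46 to -0.01). Of all 12705 tested genes, 1857 were below that unadjusted threshold in this pair. Within the pair, which decides the calls, the adjusted p was 0.168 for Tax1bp1 and 0.2 for Sqstm1 (edgeR). Adjusted over both pairs, Tax1bp1 reached 0.0414 and Sqstm1 0.0613 (edgeR). That joint adjustment includes the 30 µM pair, where 25.0% of all genes were called. Tax1bp1 had 179.5 and 183 CPM with 10 µM 6-shogaol and LPS, against 231 and 247 CPM with 10 µM 6-gingerol and LPS. The Gabarapl2 difference rested on which 10 µM 6-gingerol library was kept: it was -0.12 (adjusted p 0.75, edgeR) without the first, at 86.7 CPM, and -0.65 (adjusted p 0.0319, edgeR) without the second, at 60.1 CPM.

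The change with dose was also compared. From 10 to 30 µM 6-shogaol with LPS, 4 of the 10 genes were called (2 higher, 2 lower), where 19.4% of all genes were (9.85% higher, 9.54% lower). Sqstm1 had a log2 fold change of -0.78 (adjusted p 1.64e-04, edgeR), and its call held in all 13 other fits. Uvrag stood at -0.44 (adjusted p 0.00823), Gabarapl2 at 0.47 (0.0295) and Gabarapl1 at 0.31 (0.0475), all by edgeR. Leaving out 1 library ended the calls of Gabarapl2 (adjusted p 0.076 to 0.216) and Gabarapl1 (0.0846 to 0.316) in 4 of 4 edgeR fits. It ended that of Uvrag in 3 of 4, with 0.0659 without the first and 0.0514 without the second 10 µM 6-shogaol library and 0.0555 without the second 30 µM one (edgeR). Of the 9 fits with other settings, 4 lost Gabarapl1 and 1 lost Uvrag. For 30 against 10 µM 6-gingerol with LPS, none was called by edgeR, DESeq2 or limma-voom, and edgeR called 0.00787% of all genes. None had an unadjusted edgeR p under 0.05, where 434 of all tested genes did. The test of the difference between these dose steps, 6-shogaol minus 6-gingerol, called Sqstm1 (-0.72, SE 0.151, adjusted p 0.0110, edgeR) and Gabarapl2 (0.76, SE 0.198, adjusted p 0.0286, edgeR), where 8.17% of all genes were called (4.27% higher, 3.90% lower). For Uvrag it gave -0.48 with an adjusted p of 0.0602 (edgeR), and 4 of 9 fits with other settings called it. Leaving out 1 library ended the Sqstm1 call in 3 of 8 fits and the Gabarapl2 call in 7 of 8. Without the first 10 µM 6-gingerol library, the higher of that group's Gabarapl2 levels, the Gabarapl2 difference was 0.48 (adjusted p 0.112, edgeR).

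Against untreated cells, 30 µM 6-shogaol with LPS left 6 of the 10 genes changed (3 higher, 3 lower), where 25.4% of all genes were called (13.3% higher, 12.1% lower). Sqstm1, Tax1bp1 (-0.49) and Uvrag (-0.35) were lower than in unstimulated cells, and Gabarapl1, Optn and Ulk1 were higher. Tax1bp1 lost the call without the first untreated library (adjusted p 0.0616) or the first 30 µM 6-shogaol library (0.103), and Uvrag lost it without the second untreated library (0.196) or either 30 µM 6-shogaol library (0.0951 and 0.118), by edgeR. Ulk1 lost it without the first untreated library (0.0692) or the first 30 µM 6-shogaol library (0.111), also by edgeR. The calls of Sqstm1, Gabarapl1 and Optn held in all 13 other fits, while 2 of 9 fits with other settings lost Uvrag.

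Of 84 other autophagy genes on the pathway lists, all tested, 27 were called with 30 µM 6-shogaol and LPS against LPS alone (10 higher, 17 lower), 32.1% against 25.4% of all genes. Their median log2 fold change was -0.07, against -0.002 over all genes. In the ULK complex, 1 of 4 other genes fell, the subunit Atg13. Its levels were 133.7 and 129.9 CPM with 30 µM 6-shogaol and LPS and 218 CPM on average with LPS alone (-0.73, adjusted p 3.39e-05, edgeR). In the PI3K complex, 2 of 6 rose and 1 fell: the catalytic subunit Pik3c3 (0.60) and its adaptor Atg14 (0.43) rose and Nrbf2 fell (-0.33). Among 9 PI3P effectors and membrane suppliers, the lipid scramblase Tmem41b (0.54) and the PI3P-binding Wdr45 (0.44) rose and the scramblase Vmp1 fell (-0.40). Of 11 conjugation genes, the ubiquitin-like Atg12 (-0.62), the protease Atg4a (-0.46) and the conjugating enzyme Atg3 (-0.36) fell, and the activating enzyme Atg7 (0.42) and Atg16l1 (0.31) rose. Of 12 organelle and ferritin receptors, the mitophagy receptors Bnip3 (-0.53) and Bnip3l (-0.34) fell and none rose. Of 14 fusion genes, the SNARE Snap29 (0.50) and the tethering subunit Vps16 (0.33) rose and Tecpr1 fell (-0.39).

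Upstream regulators gave the largest changes of the pathway. Of 21, 2 rose and 7 fell with 30 µM 6-shogaol and LPS against LPS alone, among them the pseudokinase Trib3 (-2.00), the mTORC1 inhibitor Ddit4 (-0.996), the Beclin-binding survival factor Bcl2l1 (-0.98) and, in the upward direction, the mTOR inhibitor Deptor (0.86). Tfeb and Mitf, transcription factors of lysosomal and autophagy genes, fell by 0.58 and 0.54 on the log2 scale. Against 6-gingerol at 30 µM, 26 of the 84 genes were called (9 higher, 17 lower), where 25.0% of all genes were (12.5% higher, 12.4% lower). Atg13 (-0.71), Pik3c3 (0.66), Tmem41b (0.73), Atg12 (-0.63) and Trib3 (-2.07) were called there too. These 2 comparisons share the 30 µM 6-shogaol libraries. LPS alone against untreated cells called 5 of the 84: Tbk1 (0.63), Atg4a (0.58) and Mitf (0.34) were higher, and Ddit4 (-0.82) and Deptor (-0.62) lower, 5.95% against 11.8% of all genes. In both 6-gingerol comparisons with LPS and in that of 10 µM 6-shogaol with LPS, edgeR called 0 of the 84.

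**Figure D4:**
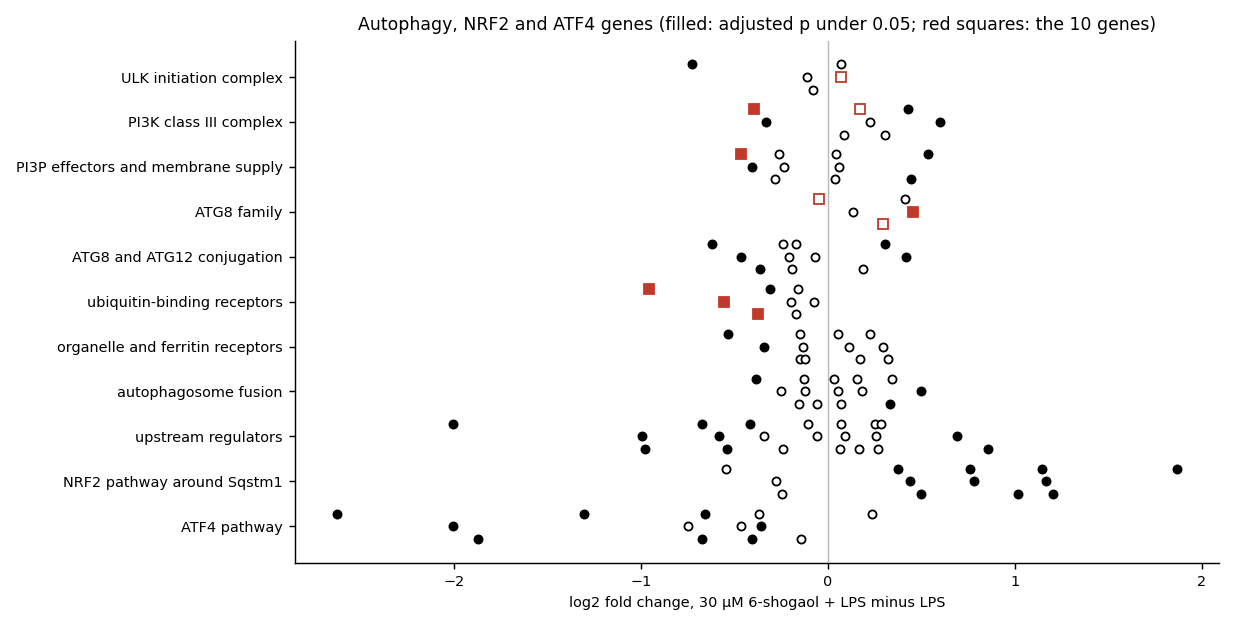
Log2 fold change (x axis) of 30 µM 6-shogaol with LPS minus LPS for each listed gene, 1 row per list; red squares are the 10 genes, circles the others, and filled symbols have an adjusted p under 0.05. Each initiation list holds filled symbols on both sides of 0, except the ULK complex, while the NRF2 list has filled symbols at positive values and the ATF4 list at negative values.

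Since p62 is both a partner and a known target of the KEAP1-NRF2 system, and ATF4 is known to induce autophagy genes, both pathways were set beside Sqstm1. Of 13 NRF2-related genes, 10 rose and none fell with 30 µM 6-shogaol and LPS against LPS alone, where 12.6% of all genes were higher and 12.8% lower. The list's median was 0.76 on the log2 scale, against -0.002 over all genes. Gclc (1.202), Me1 (1.17), Gclm (1.14) and Prdx1 (1.02), enzymes of glutathione synthesis, NADPH supply and peroxide removal, rose, and Nqo1 rose by 1.87 at low levels, 1.09 CPM with 30 µM 6-shogaol and LPS against 0.288 CPM with LPS alone. Keap1 rose by 0.76, and Hmox1 (-0.28, adjusted p 0.0753, edgeR) and Nfe2l2 (-0.25, adjusted p 0.142, edgeR) were not called. LPS alone against untreated cells raised 7 of the 13, where 7.66% of all genes were higher, with Slc7a11 at 3.74, Hmox1 at 1.196 and Me1 at 1.09. Of 13 tested ATF4 pathway genes, 8 fell and none rose in the same comparison of 30 µM 6-shogaol with LPS alone (median -0.66, where 12.8% of all genes were lower). Ppp1r15a (-2.62), Trib3, Ddit3 (-1.87) and Atf3 (-1.30) led. Trib3 and Sesn2 are on both this list and that of the upstream regulators, so the lists are not independent. The list medians per library, relative to the LPS mean on the log2 scale, were 0.82 and 0.53 for the NRF2-related genes and -0.63 and -0.71 for the ATF4 genes with 30 µM 6-shogaol and LPS. In the 4 6-gingerol libraries both medians stayed between -0.03 and 0.13. An antioxidant response element was found in the promoter windows of 5 of the 11 NRF2-related genes that had one (G6pdx, Gclm, Nfe2l2, Prdx1 and Txnrd1). Of all single windows 10.2% held this element. The Sqstm1 window held none, but only the 250 bases before each start were searched. Control of Sqstm1 by NRF2 was not tested.

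**Figure D5:**
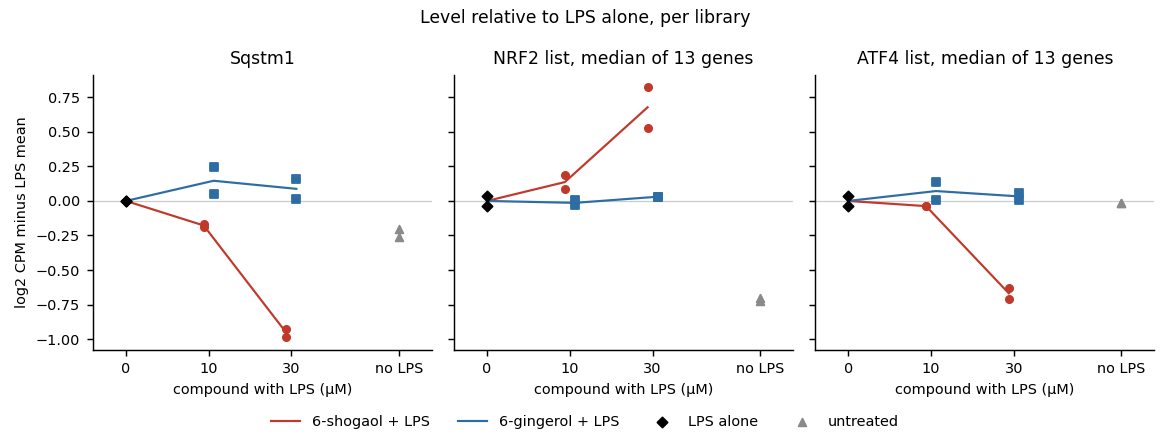
Log2 CPM minus the LPS mean (y axis) in each library for Sqstm1 and, as medians over 13 genes each, for the NRF2 and ATF4 lists, against compound dose with LPS (x axis, µM) and in untreated cells (no LPS); lines join group means. At 30 µM 6-shogaol Sqstm1 lies at -0.93 and -0.99, the NRF2 median at 0.82 and 0.53 and the ATF4 median at -0.63 and -0.71.

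Group means of 2 of the 10 genes spanned at least 1 on the log2 CPM scale, Sqstm1 (1.10) and Optn (1.02). Over the 12 libraries, the 5 genes of the 1724 other genes with such a span whose log2 CPM correlated most with Sqstm1 were Atf3 (Pearson r 0.98), Ets2 (0.98), Rab20 (0.97), Rab32 (0.97) and Manbal (0.97). With Optn they were Eml6 (0.98), Olr1 (0.98), Mmp9, Slc10a6 and Kcnf1 (0.97 each). The 12 points share groups and libraries, and the genes were picked for these values, so the correlations are a description. Ordered by mean level, Sqstm1 ran from 30 µM 6-shogaol with LPS (391.8 CPM) through untreated (648 CPM), 10 µM 6-shogaol with LPS (672 CPM), LPS alone (759.5 CPM) and 30 µM 6-gingerol with LPS (808 CPM) to 10 µM 6-gingerol with LPS (842 CPM), and the libraries of neighbouring groups overlapped only for the last 2. For Optn the order ran from untreated (14.0 CPM) through 30 µM 6-shogaol with LPS (22.0 CPM) and 10 µM 6-shogaol with LPS (26.4 CPM) to 30 µM 6-gingerol with LPS (26.8 CPM), 10 µM 6-gingerol with LPS (27.6 CPM) and LPS alone (28.6 CPM), with no overlap between the first 3 and overlap from there on.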

How the data were processed

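Per the labels' protocols, TRIzol was used for total RNA, and paired-end reads of TruSeq stranded mRNA libraries came from a NovaSeq X. The tools in the submitters' processing notes are RSEM 1.3.3, STAR 2.7.11b, Trimmomatic 0.39, DESeq2 1.44.0, R 4.4.2 and FastQC 0.12.1, and the build is GRCm38 (mm10). The annotation release and the strand setting of the counting are not given in the sources used here. Reads of a gene and an antisense partner (Mrnip for Sqstm1, Cntd1 for Becn1, Zcchc14 for Map1lc3b) therefore cannot be told apart. Zcchc14 was the most abundant of these partners, with a mean of 687 expected counts. Per the file headers, the authors' deposited tables, 1 per library, are RSEM gene tables. Their expected count (estimated reads per gene, 7.03% not whole) was tested, the deposited TPM served for levels between genes, and the deposited lengths in bases for length checks. A further table by the authors holds a normalized signal per gene, whose normalization is not stated, and was used as an alternative.

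Expected counts were rounded, filtered with filterByExpr and scaled by TMM in edgeR 4.0.16 (R 4.3.3). All 12 libraries were fitted together with 6 group means and no covariate (6 residual degrees of freedom, common biological coefficient of variation 9.45%). The 2-sided quasi-likelihood F test was run for 11 contrasts, with Benjamini-Hochberg adjustment over all 12705 genes within a contrast and calls at an adjusted p under 0.05. The 95% interval of the median gene reached 0.29 (log2) to each side where groups were compared in pairs, and 0.41 where dose steps were compared. CPM are TMM-scaled. No 2 libraries of a group agreed within counting noise. The alternatives were DESeq2 1.42.0, library totals, no filter, limma-voom (limma 3.58.1), fits of the compared groups alone, a replicate block, a fragment length covariate, an effective length offset, the authors' table with limma-trend on log2(signal + 1), and leaving out each library. The pipeline was tested on simulated counts.

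Positions follow GENCODE M21 (GRCm38), promoter sequences RefSeq (GRCm38.p6). The 10 genes, the lists and the tests were chosen with earlier results of these data known. Named were all 10 genes, up to 4 called genes per other list with the largest fold changes, and for members whose group means span at least 1 on the log2 scale the 5 genes with the highest correlation. A few further list genes (Tfeb, Mitf, Keap1, Hmox1, Nfe2l2, Nqo1, Gabarap, Calcoco1 and Tbk1 among them) are given for their role.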

Additional observations from a re-analysis of the deposited data

Results flagged for a closer look

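The step from 10 to 30 µM was tested for a difference between the compounds, and among the 10 genes it differed for 2. For Sqstm1 the step was -0.78 with 6-shogaol and -0.06 with 6-gingerol, a difference of -0.717 on the log2 scale (SE 0.151, adjusted p 0.0110, edgeR's quasi-likelihood test). Leaving out 1 library ended that call in 3 of 8 fits, with adjusted p-values of 0.0572 without the first 30 µM 6-gingerol library, 0.0547 without the second 10 µM 6-shogaol library and 0.0564 without the second 30 µM 6-shogaol library (edgeR).

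For Gabarapl2 the step was 0.47 with 6-shogaol and -0.30 with 6-gingerol, a difference of 0.762 (SE 0.198, adjusted p 0.0286, edgeR). Of that group's libraries, 1 of the 2 with 10 µM 6-gingerol stood at 86.7 CPM and the other at 60.1 CPM. The call was lost in 7 of 8 fits that left out 1 library (adjusted p 0.0551 to 0.143, edgeR), and without the library at 86.7 CPM the difference was 0.477 (adjusted p 0.112, edgeR).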

How the results depend on the processing

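Of the values of single genes under all alternatives, 1394 kept their direction or had not been called, and their side of the threshold, 62 calls were lost, 14 were gained and none reversed. Sqstm1 with 30 µM 6-shogaol and LPS against LPS alone kept its call in all 13 alternatives. Among counts of called members, with 30 µM 6-shogaol and LPS against LPS alone 6 became 1 to 4 when 1 library was left out (1 without the first 30 µM 6-shogaol library, 3 without the first and 2 without the second LPS library). Against 30 µM 6-gingerol with LPS 4 became 2 to 4, against 10 µM 6-shogaol with LPS 4 became 1 to 2, against untreated cells 6 became 3 to 5 (3 without the first 30 µM 6-shogaol library), and for the difference of dose steps 2 became 0 to 2. At 10 µM the comparison of the compounds gave 0 to 1 in such fits. In these fits 1 group has a single library, which is assumed to vary like the others. Over all tested genes, too, every such fit of these comparisons called fewer genes than the fit with all libraries, so the loss was not particular to the members.

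Fitting only the compared groups gave 1 call at 10 µM 6-shogaol against LPS (Tax1bp1, adjusted p 0.01) in place of 0. Without a count filter the 10 µM comparison of the compounds gave 2 in place of 0 (Gabarapl2 and Tax1bp1). The authors' table gave 2 in place of 4 for 30 against 10 µM 6-shogaol. Replicate numbers showed no common pairing over all groups: the correlation of same-numbered libraries ran from -0.312 to 0.178 over 15 pairs of groups. Its median was 0.036, with 5 pairs above 0.1 and 2 below -0.1, and pairing among only some groups was not tested. A replicate block left every count of called members as it was (6 for 30 µM 6-shogaol against LPS, 2 for LPS against untreated). For all genes called, 10 µM 6-shogaol against LPS ran from 18 to 970 over the alternatives, against 81. Scaling to library totals shifted the median of all genes by 0.111 in the 10 µM comparison of the compounds and by -0.15 in the difference of dose steps, where the split of higher and lower calls was 262 to 759, against 542 to 496. The split was 785 to 688 with library totals against 973 to 528 for LPS against untreated, 870 to 1434 against 1251 to 1212 for 30 against 10 µM 6-shogaol, and 21 to 48 against 10 to 71 for the compounds at 10 µM. The causes were not tested. With 2 libraries per group, the half-widths of the members' unadjusted intervals were about 0.21 to 0.30 where groups were compared in pairs. They were 0.29 to 0.42 for the difference of dose steps. Smaller differences were not detectable even before adjustment. Calls used the adjusted p, so some larger differences were not called either. Examples were Ulk1 for LPS against untreated (0.43, adjusted p 0.054, edgeR) and Gabarapl2 for the compounds at 10 µM (-0.411, adjusted p 0.215, edgeR).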

Other observations

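With 30 µM 6-shogaol and LPS against untreated cells, 23 of the 84 other autophagy genes were called (7 higher, 16 lower), 27.4% against 25.4% of all genes. Trib3 (-2.51), Ddit4 (-1.82), the stress-induced mTORC1 inhibitor Sesn2 (-1.04) and Tfeb (-0.87) were lowest, and Tmem41b (0.57), Tbk1 (0.47) and Pik3c3 (0.41) were higher. The NRF2-related genes had 11 of 13 higher than in untreated cells, where 13.3% of all genes were higher, with Slc7a11 at 4.11 and Me1 at 2.26. In the difference of dose steps, 6-shogaol minus 6-gingerol, 13 of the 84 were called (4 higher, 9 lower), 15.5% against 8.17% of all genes (4.27% higher, 3.90% lower). The largest differences were downward, in Trib3 (-1.81), Ddit4 (-1.56), Sesn2 (-0.96) and Tfeb (-0.95), and Tecpr1 (-0.71) was also lower. The higher genes were Tmem41b (0.87), Pik3c3 (0.63), Snap29 (0.56) and Ncoa4, a receptor for ferritin (0.54).

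The mean length that RSEM assigned to a gene varied by a factor of 1.31 over the libraries for Becn1, 1.17 for Map1lc3b and 1.15 for Gabarapl2. Gabarapl1, Uvrag and Ulk1 have 1 transcript each in the tables, so their length was constant.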
